A study of Rattus norvegicus with 6 samples.

Results

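The genes of the respiratory chain were followed in the rat brain after subarachnoid hemorrhage (SAH), those encoded in the nucleus apart from those encoded in mitochondrial DNA. Nuclear genes were taken by symbol, as every Nduf, Cox4 to Cox8, Atp5 and Uqcr gene and Sdha to Sdhd, and mitochondrial genes by position, as every row on the mitochondrial genome. These rules found 112 of 22396 gene models, 97 of them nuclear and 15 mitochondrial. The rules themselves use no measured value, but they were chosen with earlier results of these data known. The SAH + 6-gingerol group held 3 adult male Sprague-Dawley rats given 6-gingerol, a phenolic compound of ginger, at 10 mg/kg. The SAH + PBS group held 3 such rats given the phosphate-buffered saline in which the drug was dissolved. Both groups had their own femoral artery blood injected into the cisterna magna and received the injection into the abdomen 1 h later. RNA was taken from the basal temporal lobe 24 h after SAH, and each rat gave 1 library. No library of sham rats was analysed here, so every value compares treated with vehicle-treated SAH rats, and the blood injection as a model is shared by both groups.

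The respiratory chain moves electrons from NADH and succinate to oxygen through complexes I to IV of the inner mitochondrial membrane, and complex V, the ATP synthase, uses the proton gradient that this builds. Complex II is made only of nuclear-encoded subunits, whereas the other complexes join nuclear-encoded subunits with subunits translated inside the mitochondrion. Neurons depend heavily on this source of ATP, so the chain is often followed in the injured brain.

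Total counts ranged from 62762808 to 66761380 per library, and all values per gene below are CPM, counts scaled to a fixed library size, further scaled by TMM, a factor that sets the bulk of genes level between libraries, unless FPKM, which also divides by gene length, is named. The library of SAH + PBS rat 2 stood apart from the other 2 of its group, with a scaled chi-square of 328 and 439 per gene against them and of 86.3 between those 2. Summed neuron markers ranged from 7210 to 7564 CPM in the SAH + 6-gingerol group, against 5660, 3478 and 5678 CPM in SAH + PBS rats 1 to 3. All 8 neuron markers were detected, and their log2 fold changes were positive in 8 of 8, and their median was 0.55 (0.35 when SAH + PBS rat 2 is left out). Summed oligodendrocyte markers ranged from 3518 to 6775 CPM in the SAH + 6-gingerol group and from 2541 to 5080 CPM in the SAH + PBS group. Summed astrocyte markers were 4587, 4115 and 4094 CPM with 6-gingerol, against 5357, 6721 and 5810 CPM with PBS. These sums did not overlap, while 6 of the 7 astrocyte markers had a positive log2 fold change (median 0.29). The exception was Gfap, a filament protein of reactive astrocytes, with 539, 440 and 314 CPM with 6-gingerol, against 2200, 4405 and 2105 CPM with PBS, and a log2 fold change of -2.75 ± 0.37 (SE, adjusted p = 0.289 in edgeR and 2.39e-11 in DESeq2). Neutrophil markers summed to 3.75, 4.81 and 4.61 CPM with 6-gingerol, against 5.16, 43.3 and 8.89 CPM with PBS. Choroid plexus and ependyma markers summed to at most 5.69 CPM in every library but SAH + PBS rats 1 and 3, where they reached 1119 and 324 CPM. In whole tissue, fewer cells of a type and less RNA per cell cannot be told apart, and the part of these markers in the results below was not tested.

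Of the 112 genes, 109 had enough counts to be tested, and 0 passed an adjusted p of 0.05 in edgeR's quasi-likelihood test, where 0.0175% of all 17096 genes tested did (3 genes). The smallest adjusted p of a member was 0.347. At an unadjusted p below 0.05, 2 members were higher with 6-gingerol, Mt-co2 and the model listed as Cox7a2l2, beside a background of 5.22% of all genes, and 1 was lower, Cox5b, beside 8.71%. None also differed by more than 2-fold, the limits the study used, which 0.731% of all genes passed upward and 4.69% downward. DESeq2, run on the same counts, called 4.28% of genes at an adjusted p of 0.05 and among them 2 members, Mt-co1 and Mt-co2, both higher. Without SAH + PBS rat 2, edgeR called 0.524% of genes and 0 members.

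The 13 mitochondrial messenger RNAs encode the subunits of the chain that are translated inside the mitochondrion. All 13 had a positive log2 fold change, between 0.19 and 0.44 with a median of 0.26, beside a median of -0.03 over all genes. In 9 of the 13 every SAH + 6-gingerol rat was above every SAH + PBS rat, and in 0 every one was below. Over all genes the groups were apart in this way in 13.8% upward and 13.4% downward. The 13 lie on the same small genome, come from the same rats, and some share bases, so they are not separate observations. Scaled by library totals instead of TMM, the median of all genes moved to -0.15 and that of the 13 to 0.14. The 13 were 0.29 above the median of all genes under both scalings. A change of scaling moves all genes nearly alike, so this distance could hardly change and is no separate support. By library totals 6 of the 13 did not overlap between groups, all upward, beside 7.32% of all genes upward and 22.2% downward. Without SAH + PBS rat 2 the median of the 13 was 0.23.

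**Figure D1:**
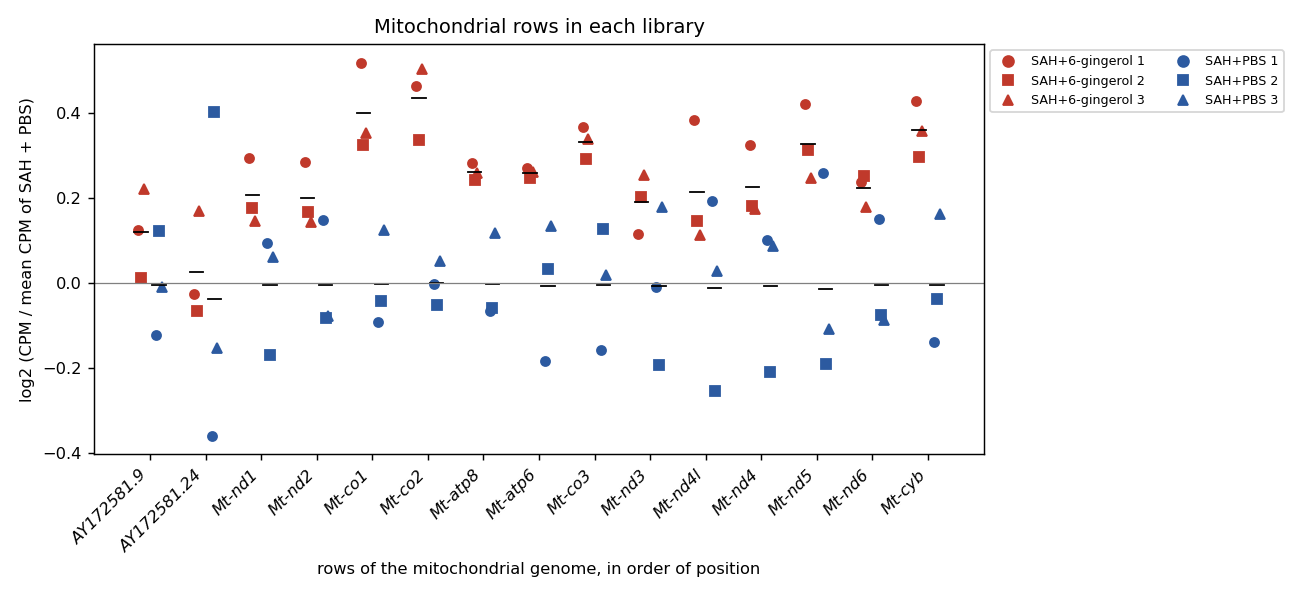
Level of each mitochondrial row in each library, as the log2 of its CPM over the mean CPM of the SAH + PBS group, with rows in order of position and a short line at each group's mean. All 13 messenger RNAs have the SAH + 6-gingerol mean (left of each pair) above the SAH + PBS mean (right), and AY172581.24 has its highest value in SAH + PBS rat 2.

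Complex IV, cytochrome c oxidase, passes electrons to oxygen, and its catalytic core is encoded by Mt-co1, Mt-co2 and Mt-co3. Mt-co2, which carries the copper site that first takes electrons from cytochrome c, had 6790, 6214 and 6976 CPM in SAH + 6-gingerol rats, against 4911, 4744 and 5104 CPM in SAH + PBS rats. The lowest treated rat was above the highest vehicle-treated one. Its log2 fold change was 0.44 ± 0.14 (SE), with an adjusted p of 0.347 in edgeR and 0.00155 in DESeq2.

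Mt-co1, the subunit where oxygen is reduced and the most abundant of the 13 in counts, had 27218, 23812 and 24266 CPM with 6-gingerol, against 17828, 18449 and 20711 CPM with PBS. The groups did not overlap, and SAH + 6-gingerol rat 1 was the highest. The log2 fold change was 0.40 ± 0.17 (SE), with an adjusted p of 0.359 in edgeR and 0.0368 in DESeq2. Mt-co3 had 10988, 10430 and 10771 CPM in the SAH + 6-gingerol group, against 7634, 9303 and 8629 CPM in the SAH + PBS group, again with no overlap. Its log2 fold change was 0.33 ± 0.15 (SE), and both tools left it uncalled (adjusted p = 0.372 in edgeR and 0.0961 in DESeq2).

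Mt-cyb encodes cytochrome b, the only subunit of complex III made in the mitochondrion. Its levels were 10119, 9224 and 9629 CPM with 6-gingerol, against 6818, 7315 and 8405 CPM with PBS. The spread among vehicle-treated rats was wide, yet the groups did not overlap (log2 fold change 0.36 ± 0.15, SE, edgeR adjusted p = 0.363).

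Mt-atp6 and Mt-atp8 encode membrane subunits of the ATP synthase and are read from overlapping frames, with 43 shared bases in the gene models, so their reads cannot be fully told apart. Mt-atp6 had 1852, 1823 and 1841 CPM with 6-gingerol, against 1352, 1570 and 1685 CPM with PBS. Mt-atp8 had 2071, 2013 and 2034 CPM with 6-gingerol, against 1624, 1633 and 1847 CPM with PBS. For both genes the treated rats lay within a narrow band above all vehicle-treated rats, with log2 fold changes of 0.26 each and edgeR adjusted p of 0.392 and 0.372. The FPKM of Mt-atp8 over that of Mt-atp6 was 3.70 ± 0.03 in the SAH + 6-gingerol group and 3.71 ± 0.27 in the SAH + PBS group (SD, n = 3 each).

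The 7 mitochondrial genes of complex I, the NADH dehydrogenase, encode its proton-pumping membrane arm, and their log2 fold changes had a median of 0.22, or 0.13 when SAH + PBS rat 2 was left out. In 3 of the 7 the groups did not overlap, namely Mt-nd1, Mt-nd4 and Mt-nd6, all upward, beside 13.8% of all genes upward. By library totals the groups overlapped in all 7, beside 7.32% of all genes upward and 22.2% downward without overlap. Mt-nd1 had 6822, 6285 and 6152 CPM in SAH + 6-gingerol rats, against 5937, 4943 and 5797 CPM in SAH + PBS rats. Mt-nd6, the only one of the 13 on the minus strand of the files' genome, had 794, 803 and 762 CPM with 6-gingerol, against 748, 639 and 634 CPM with PBS. In both genes SAH + PBS rat 1 came closest to the treated rats.

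Mt-nd5 had the largest log2 fold change of these 7, 0.33 ± 0.17 (SE, edgeR adjusted p = 0.397). It had 5397, 5005 and 4783 CPM with 6-gingerol, against 4817, 3529 and 3734 CPM with PBS, and here SAH + PBS rat 1 was above SAH + 6-gingerol rat 3. Mt-nd2, Mt-nd3 and Mt-nd4l had log2 fold changes between 0.19 and 0.22 with overlapping groups. Mt-nd4l and Mt-nd4 share 7 bases, and Mt-nd5 and Mt-nd6 share 23 bases on opposite strands, where an unstated strand setting leaves the source of reads unknown.

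A pair of further mitochondrial rows, AY172581.9 at positions 68 to 1025 and AY172581.24 at positions 1094 to 2664, carry only an identifier and no description. AY172581.9 had 3117, 2883 and 3333 CPM in SAH + 6-gingerol rats, against 2626, 3110 and 2838 CPM in SAH + PBS rats. AY172581.24 had 4052, 3938 and 4638 CPM with 6-gingerol, against 3216, 5453 and 3709 CPM with PBS, so its highest and its lowest library were both vehicle-treated. Both rows overlapped between groups, with log2 fold changes of 0.12 for AY172581.9 and 0.03 for AY172581.24. When SAH + PBS rat 2 was left out these were 0.19 and 0.28, and their median of 0.24 was close to the 0.23 of the 13 messenger RNAs. The ratio of AY172581.24 to AY172581.9 in counts was 1.75 in SAH + PBS rat 2 and between 1.22 and 1.39 in the other 5 libraries.

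As a share of all counts, the 13 messenger RNAs made up 8.16%, 7.47% and 7.53% in the SAH + 6-gingerol rats, against 6.55%, 6.63% and 6.81% in the SAH + PBS rats. The shares did not overlap. The 2 unnamed rows took 0.688%, 0.658% and 0.760% with 6-gingerol, against 0.605%, 0.921% and 0.664% with PBS, which overlapped. The 97 nuclear genes together took 1.02%, 0.990% and 0.999% with 6-gingerol, against 1.07%, 0.979% and 1.03% with PBS, which also overlapped. These shares are descriptions with no test.

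**Figure D2:**
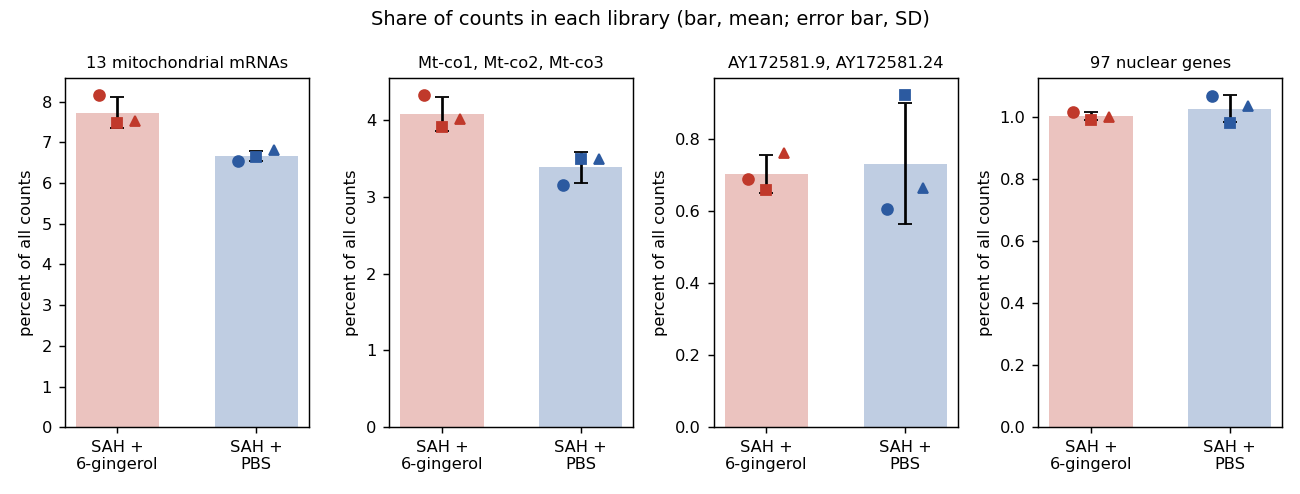
Percent of all counts taken in each library by the 13 mitochondrial messenger RNAs, the 3 mitochondrial complex IV genes, the 2 mitochondrial rows without a name and the 97 nuclear genes (points, circle, square and triangle for rats 1 to 3; bars, group means; error bars, SD). The groups (SAH + 6-gingerol on the left) do not overlap for the messenger RNAs or the complex IV genes and overlap in the other 2 panels.

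The balance between the genomes was read as the summed counts of the 13 messenger RNAs over those of the nuclear genes, a ratio that no library scaling can alter. It was 8.03, 7.55 and 7.54 in the SAH + 6-gingerol rats, against 6.15, 6.78 and 6.59 in the SAH + PBS rats. Within complex IV alone, the mitochondrial over the nuclear counts were 21.8, 19.8 and 19.98 with 6-gingerol, against 14.7, 16.5 and 16.9 with PBS. Both ratios were higher in every treated rat. Within complex I the ratio was 9.18, 8.67 and 8.46 with 6-gingerol, against 8.25, 7.83 and 7.47 with PBS, with a smaller gap. The ratio of mitochondrial complex IV to mitochondrial complex I counts, in contrast, overlapped, at 1.74, 1.69 and 1.79 with 6-gingerol, against 1.32, 1.74 and 1.66 with PBS. SAH + PBS rat 1 had the lowest ratio. It also had the lowest Mt-cyb over Mt-nd1, 1.15, where the other 5 libraries had 1.45 to 1.57. Summed choroid plexus and ependyma markers were 1119 CPM in that rat and 324 CPM in SAH + PBS rat 3. In SAH + PBS rat 3 the same ratios were 1.66 and 1.45. The part of these markers in the ratios was not tested.

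Mt-co1 alone took 31.2% ± 0.7 of the messenger RNA counts of the mitochondrion in the SAH + 6-gingerol group and 29.7% ± 1.3 in the SAH + PBS group (SD, n = 3 each). Mt-nd6 took the least, 0.979% ± 0.052 in treated and 1.06% ± 0.12 in vehicle-treated rats. Only the share of Mt-co2 was higher in every treated rat, at 7.99%, 8.02% and 8.84% with 6-gingerol, against 7.77%, 7.69% and 7.61% with PBS. On the FPKM scale Mt-co1 and Mt-co3 were highest, with means over the 6 libraries of 14191 and 12233, and Mt-nd6 lowest, with 1403.

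The nuclear genes showed no such common direction. Of the 94 tested, 58 were positive and 36 negative in log2 fold change, and the median was 0.05. Of these, 9 (9.57%) were higher in every treated rat and 4 (4.26%) were lower, both shares below the background over all genes given above. Under library totals the balance turned, with 33 of 94 positive and a median of -0.07. By these totals 2 of the 94 were higher and 26 lower without overlap, beside 7.32% of all genes upward and 22.2% downward. The median of all genes moved down as well. The nuclear genes were 0.08 above it under both scalings, a distance that a change of scaling can hardly alter. Without SAH + PBS rat 2 the median of the nuclear genes was -0.01. Summed over the 97 genes, the SAH + 6-gingerol rats had 10586, 10261 and 10477 CPM and the SAH + PBS rats 10276, 9098 and 10186 CPM, so that rat was the lowest of all.

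**Figure D3:**
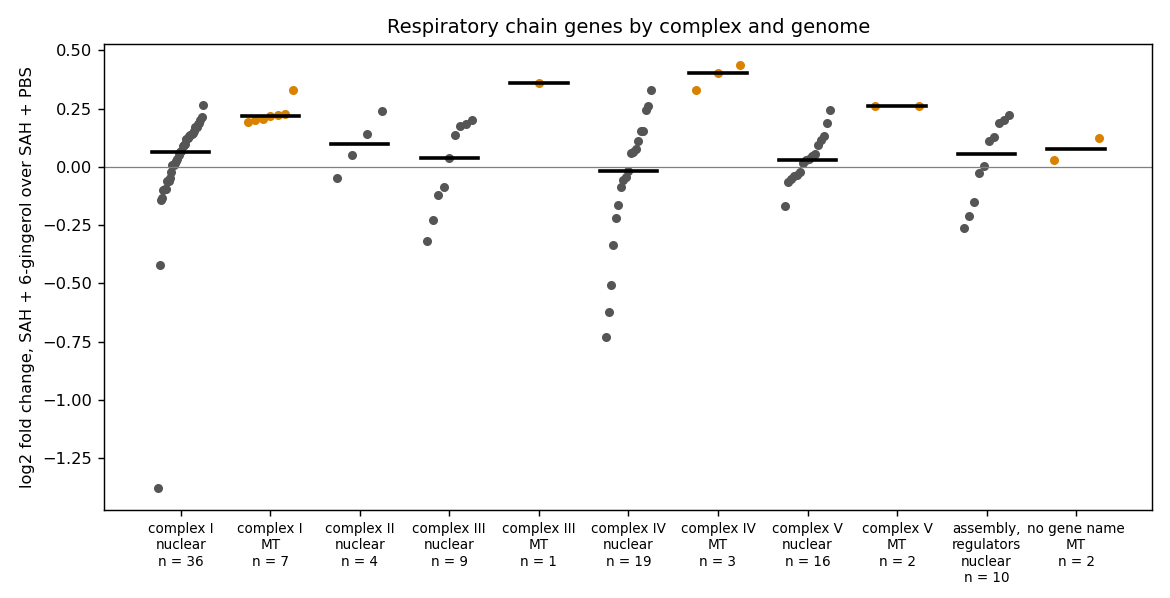
Log2 fold change, SAH + 6-gingerol over SAH + PBS, of each tested member, by complex and by genome (points, genes; black line, median of the column; n, genes). The mitochondrial columns lie above 0 throughout, whereas each nuclear column spreads to both sides of it and Ndufa1 lies lowest at -1.38.

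For complex I, 38 nuclear models were listed and 36 tested, of which 25 were positive and 11 negative, with a median log2 fold change of 0.07. When SAH + PBS rat 2 was left out 18 of the 36 were positive and the median was -0.00085. The 7 core subunits of the matrix arm, which carry the flavin and the iron-sulfur clusters, were positive in 7 of 7 with a median of 0.15, or 0.05 without SAH + PBS rat 2. Ndufs1, the largest of them and the holder of several iron-sulfur clusters, had 201, 195 and 201 CPM in SAH + 6-gingerol rats, against 183, 127 and 186 CPM in SAH + PBS rats. The groups did not overlap, but the difference rested mostly on SAH + PBS rat 2, and the log2 fold change of 0.27 ± 0.16 (SE, edgeR adjusted p = 0.442) was 0.11 without it.

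Among the accessory subunits, which surround this core, 18 were positive and 11 negative. Ndufb5, of the membrane arm, had 67.8, 66.6 and 70.0 CPM with 6-gingerol, against 61.0, 58.2 and 62.5 CPM with PBS. All treated rats were higher, by a log2 fold change of 0.17 ± 0.09 (SE, edgeR adjusted p = 0.401). Ndufb9, the most abundant nuclear complex I gene on the FPKM scale, had a mean FPKM of 181 over all libraries and a log2 fold change of -0.06 with overlapping groups.

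Ndufa1, an accessory subunit encoded on the X chromosome, differed widely between rats of the SAH + 6-gingerol group and little between those of the SAH + PBS group. Its levels were 6.15, 16.8 and 1.5 CPM in the treated rats, against 20.2, 21.5 and 22.0 CPM in the vehicle-treated rats. Every treated rat was lower, but the treated rats differed among themselves by 11.2-fold and the vehicle-treated rats by 1.09-fold. The log2 fold change of -1.38 ± 0.75 (SE) had an adjusted p of 0.407 in edgeR and 0.250 in DESeq2. The Ndufa1 model has a length of 2605 bases and a mean FPKM of 5.76 over all libraries, where Ndufb9 had 181. Whether this row holds the whole level of the subunit's messenger RNA was not tested.

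Complex II, succinate dehydrogenase, links the citric acid cycle to the chain, and 3 of its 4 genes had a positive log2 fold change. Sdha, its flavoprotein, had 317, 297 and 313 CPM in SAH + 6-gingerol rats, against 288, 200 and 295 CPM in SAH + PBS rats. The groups were apart by a small margin except for SAH + PBS rat 2, and the log2 fold change of 0.24 ± 0.17 (SE, edgeR adjusted p = 0.478) was 0.08 without that rat. Sdhc and Sdhd, the membrane anchors, had 0.14 and 0.05, and Sdhb, the iron-sulfur subunit, had -0.05, all with overlapping groups.

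Complex III, the cytochrome bc1 complex, had 5 positive and 4 negative nuclear models with a median of 0.04, and 4 positive with a median of -0.0058 when SAH + PBS rat 2 was left out. The core protein Uqcrc1 had 228, 211 and 219 CPM with 6-gingerol, against 202, 189 and 189 CPM with PBS, and the Rieske iron-sulfur protein Uqcrfs1 had 145, 126 and 130 CPM with 6-gingerol, against 123, 111 and 115 CPM with PBS. Both were higher in every treated rat, with log2 fold changes of 0.18 ± 0.09 and 0.20 ± 0.10 (SE) and edgeR adjusted p of 0.393 each. Uqcrh, the hinge protein that sits beside cytochrome c1, went the other way, with 70.8, 67.0 and 76.6 CPM with 6-gingerol, against 81.2, 86.6 and 83.1 CPM with PBS. All treated rats were lower (log2 fold change -0.23 ± 0.10, SE, edgeR adjusted p = 0.362).

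Uqcrb was listed as a pair of models. The full gene on chromosome 7 had a log2 fold change of -0.08, and a model of 475 bases on chromosome 1 had -0.32 ± 0.15 (SE, edgeR adjusted p = 0.377) with 40.2, 32.2 and 30.1 CPM with 6-gingerol, against 42.9, 38.8 and 45.9 CPM with PBS. The groups overlapped by SAH + 6-gingerol rat 1. Reads may be split between the Uqcrb models, whose sequences were not compared. Uqcr11, a small subunit and the most abundant nuclear one of the complex on the FPKM scale, had a mean FPKM of 319.

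The nuclear subunits of complex IV had 9 positive and 10 negative log2 fold changes and a median of -0.02, where the 3 mitochondrial subunits of the same complex had a median of 0.40. Cox5b, a zinc-binding subunit on the matrix side, had 90.1, 104 and 101 CPM in SAH + 6-gingerol rats, against 129, 132 and 112 CPM in SAH + PBS rats. All treated rats were lower, and the log2 fold change was -0.34 ± 0.11 (SE, unadjusted p = 0.0212, edgeR adjusted p = 0.347). The model listed as Cox7a2l2, on chromosome 8, carries the gene identifier of Cox7a2 in RefSeq, a small membrane subunit. It had 82.9, 85.1 and 88.7 CPM with 6-gingerol, against 70.2, 72.5 and 71.2 CPM with PBS. All treated rats were higher, and both groups were tight, with a log2 fold change of 0.26 ± 0.09 (SE, unadjusted p = 0.0207) and an adjusted p of 0.347 in edgeR and 0.0552 in DESeq2.

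Ndufa4, named for complex I but a subunit of complex IV, had 223, 205 and 211 CPM with 6-gingerol, against 185, 146 and 207 CPM with PBS. SAH + PBS rat 3 was above SAH + 6-gingerol rat 2, and the log2 fold change was 0.25 ± 0.15 (SE, edgeR adjusted p = 0.432). The most abundant nuclear complex IV genes on the FPKM scale, Cox6a1, Cox8a and Cox4i1, had mean FPKM of 586, 522 and 500 and log2 fold changes of -0.08, -0.02 and 0.11, with overlapping groups.

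Several complex IV subunits have alternative forms that differ between tissues or states. The FPKM of Cox4i1, the common form of subunit 4, was 384 ± 115 times that of Cox4i2, a form known from lung and from low oxygen, in the SAH + 6-gingerol group and 234 ± 39 times in the SAH + PBS group (SD, n = 3 each). Cox4i2 had 1.22, 1.18 and 2.24 CPM in treated and 2.01, 2.1 and 2.47 CPM in vehicle-treated rats, so the ratio and its spread followed the minor form (log2 fold change -0.50 ± 0.34, SE, edgeR adjusted p = 0.469). Ndufa4 was 87.8 ± 11.3 times Ndufa4l2, its form induced by hypoxia, with 6-gingerol and 84.3 ± 14.9 times with PBS.

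The heart and skeletal muscle forms were scarce, with a mean FPKM over all libraries of 7.13 for Cox6a2, 0.397 for Cox7a1 and 0.350 for Cox8b. Cox8b had 0 counts in SAH + 6-gingerol rats 1 and 2. Cox6b2, a testis form, had a mean FPKM of 2.70. Cox6b1 was listed as a model on chromosome 1, with a mean FPKM of 113 and a log2 fold change of 0.06, and a model of 261 bases on chromosome 2. The latter had a mean FPKM of 37.3 and a log2 fold change of 0.33 ± 0.20 (SE, edgeR adjusted p = 0.441). Cox6a2 ran from 1.21 to 4.43 CPM in treated and from 1.73 to 5.53 CPM in vehicle-treated rats, and the groups overlapped for each of these genes. Muscle markers summed to 21.0 to 24.2 CPM in the SAH + 6-gingerol group and 22.2 to 23.97 CPM in the SAH + PBS group.

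**Figure D4:**
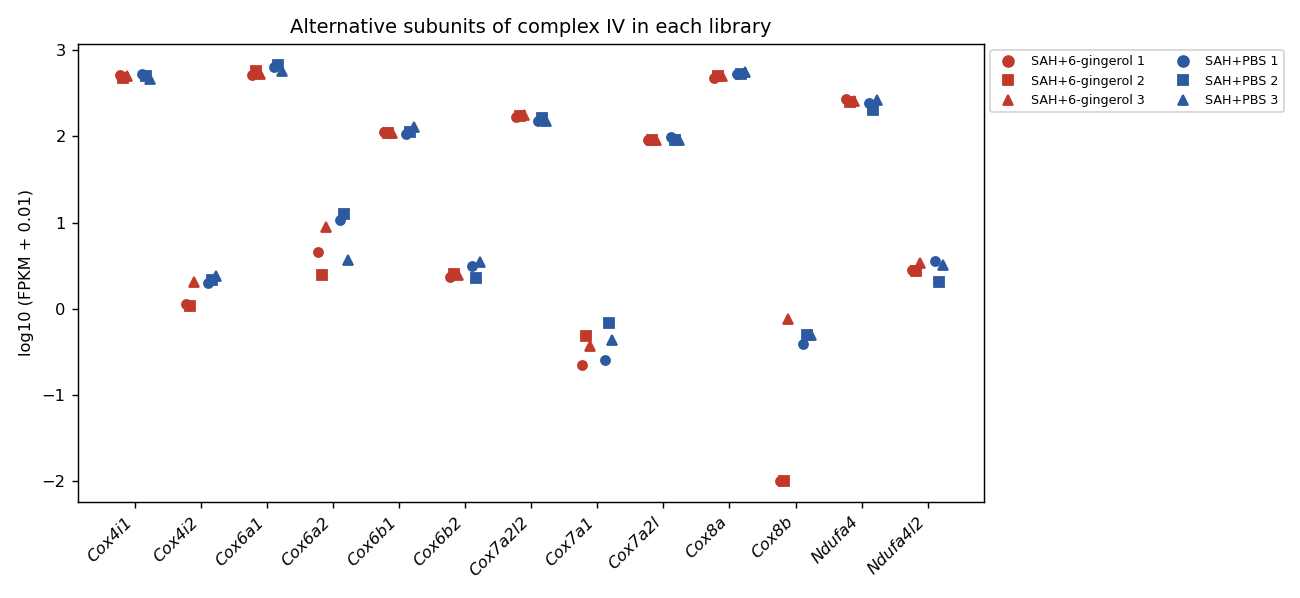
FPKM, as log10 of FPKM + 0.01, of complex IV subunits that have alternative forms, in each library (SAH + 6-gingerol left, SAH + PBS right). Cox4i1, Cox6a1, Cox6b1 (the chromosome 1 model only), the Cox7a2l2 model, Cox8a and Ndufa4 lie far above Cox4i2, Cox6a2, Cox6b2, Cox7a1, Cox8b and Ndufa4l2 in both groups, and the 2 lowest points are Cox8b at 0 counts.

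Complex V had 10 positive and 6 negative nuclear models and a median of 0.03, against 7 of 16 positive and -0.01 when SAH + PBS rat 2 was left out. Atp5f1a, the alpha subunit of the catalytic head, had 831, 787 and 799 CPM in SAH + 6-gingerol rats, against 741, 582 and 719 CPM in SAH + PBS rats. Atp5po, of the stalk that holds the head in place, had 175, 168 and 166 CPM with 6-gingerol, against 158, 130 and 159 CPM with PBS. Both were higher in every treated rat, with log2 fold changes of 0.24 ± 0.13 and 0.19 ± 0.12 (SE) and edgeR adjusted p of 0.407 and 0.441, and SAH + PBS rat 2 was the lowest in both. When it was left out the log2 fold changes were 0.14 for Atp5f1a and 0.10 for Atp5po. Atp5f1b, the catalytic beta subunit and the most abundant nuclear member, had 1186, 1178 and 1250 CPM with 6-gingerol, against 1192, 1003 and 1099 CPM with PBS, with overlapping groups.

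Among 10 assembly factors and regulators, 6 were positive and 4 negative. Ndufaf1, a complex I assembly factor, had 18.7, 17.1 and 19.3 CPM with 6-gingerol, against 15.9, 15.2 and 16.8 CPM with PBS, whereas Ndufaf8 had 13.2, 15.2 and 13.3 CPM with 6-gingerol, against 15.4, 17.7 and 15.3 CPM with PBS. Ndufaf1 was higher and Ndufaf8 lower in every treated rat (log2 fold changes 0.20 ± 0.12 and -0.21 ± 0.14, SE, edgeR adjusted p = 0.446 and 0.462). Ndufaf7, a methyltransferase that acts on complex I, had 0.22 ± 0.15 (SE) with overlapping groups. Atp5if1, the inhibitor that holds the ATP synthase from running in reverse, had a mean of 115 ± 8.2 CPM in the SAH + 6-gingerol group and 115 ± 7.4 CPM in the SAH + PBS group (SD, n = 3 each).

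The nuclear members were also split by the length of the gene model, as implied by counts and FPKM. The 58 models under 1000 bases had a median log2 fold change of 0.02, with 33 positive, and the 36 longer ones had 0.12, with 25 positive. Of the 9 genes higher in every treated rat 7 were among the longer ones, and of the 4 lower 1 was. Over all genes, of any length, 13.8% were higher and 13.4% lower without overlap. These shares were not taken by length over all genes, so nothing is read from the counts by length. Over all genes tested the same split gave medians of -0.08 for 2451 short and -0.02 for 14645 longer models. Across the 94 members Spearman's rho between length and log2 fold change was 0.29, and 0.06 across all genes. These genes come from the same 6 libraries, which differ in the neuron markers given above, and without SAH + PBS rat 2 the medians of the short and long members were -0.03 and 0.04.

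**Figure D5:**
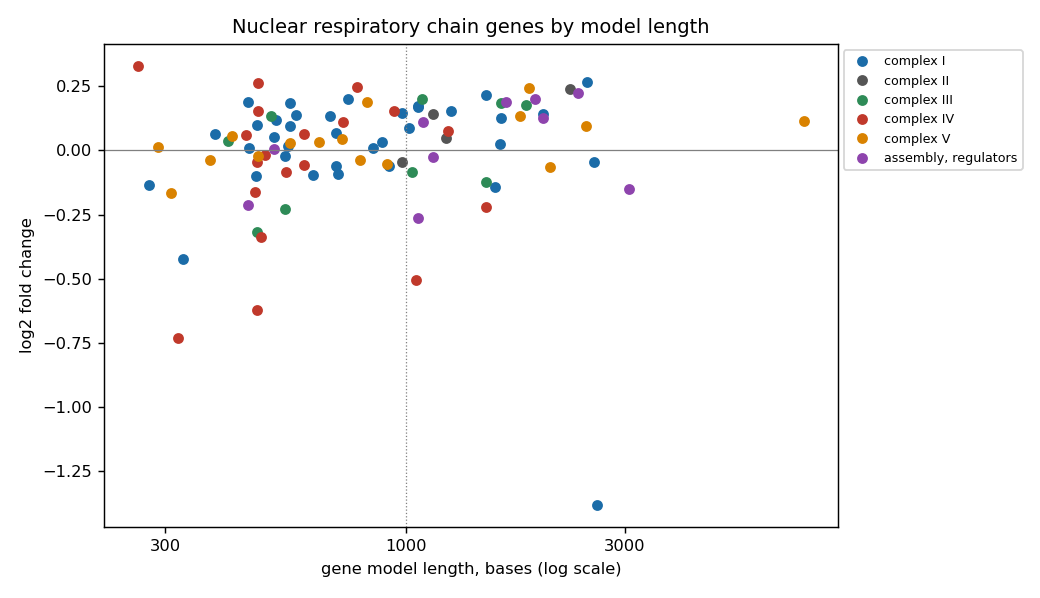
Log2 fold change (SAH + 6-gingerol over SAH + PBS) of the 94 tested nuclear members against the length of their gene model in bases, on a log axis, coloured by complex, with a dotted line at 1000 bases. To the right of the line 25 of 36 points lie above 0, and Ndufa1 lies lowest at -1.38.

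Promoters of nuclear respiratory chain genes are known for sites of NRF-1 and of ETS-family factors such as GABP. For 79 of the 97 models a distinct RefSeq promoter was matched by gene identifier, and the 250 bases before the start were searched on both strands for GCGCANGCG, the NRF-1 core, CCGGAAG, an ETS core, and AAGATGGC, a YY1 core. Matches of NRF-1 on the 2 strands can share bases. The NRF-1 letters were in 20.3% of these promoters and in 5.53% of all 27457 promoters, the ETS letters in 26.6% and 7.74%, and the YY1 letters in 2.53% and 1.69%. The windows of 5 genes whose groups did not overlap are shown, Sdha and Uqcrc1, which were higher with 6-gingerol and hold NRF-1 letters, Cox7a2 (the Cox7a2l2 model), which was higher and holds ETS letters, and Uqcrh and Cox5b, which were lower and hold ETS letters. Capitals mark these letters on either strand, and each window runs 5′ to 3′ along the gene in the build GRCr8. Sdha lies at chr1:30764303-30764552 (plus strand), Uqcrc1 at chr8:118467973-118468222 (plus strand), Cox7a2 at chr8:89601150-89601399 (minus strand), Uqcrh at chr5:134790883-134791132 (minus strand) and Cox5b at chr9:46417587-46417836 (plus strand).
Sdha: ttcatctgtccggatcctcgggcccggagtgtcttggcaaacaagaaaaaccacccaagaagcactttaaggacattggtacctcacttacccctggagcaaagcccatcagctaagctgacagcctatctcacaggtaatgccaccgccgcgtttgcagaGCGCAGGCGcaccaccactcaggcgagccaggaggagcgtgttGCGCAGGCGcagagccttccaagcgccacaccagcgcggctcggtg
Uqcrc1: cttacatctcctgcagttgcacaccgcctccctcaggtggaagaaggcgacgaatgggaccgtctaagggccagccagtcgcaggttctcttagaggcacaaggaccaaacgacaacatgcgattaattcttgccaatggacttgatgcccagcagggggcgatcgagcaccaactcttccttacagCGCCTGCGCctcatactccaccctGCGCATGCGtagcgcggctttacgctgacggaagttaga
Cox7a2: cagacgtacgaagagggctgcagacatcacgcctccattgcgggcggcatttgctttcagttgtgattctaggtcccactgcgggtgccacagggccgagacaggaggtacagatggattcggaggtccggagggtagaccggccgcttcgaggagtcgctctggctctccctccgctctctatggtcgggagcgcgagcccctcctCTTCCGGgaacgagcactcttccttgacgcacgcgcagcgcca
Uqcrh: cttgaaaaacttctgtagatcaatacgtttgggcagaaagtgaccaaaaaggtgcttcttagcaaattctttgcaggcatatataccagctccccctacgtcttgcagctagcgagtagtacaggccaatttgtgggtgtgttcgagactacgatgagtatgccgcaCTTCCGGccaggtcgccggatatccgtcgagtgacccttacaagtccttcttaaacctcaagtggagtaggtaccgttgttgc
Cox5b: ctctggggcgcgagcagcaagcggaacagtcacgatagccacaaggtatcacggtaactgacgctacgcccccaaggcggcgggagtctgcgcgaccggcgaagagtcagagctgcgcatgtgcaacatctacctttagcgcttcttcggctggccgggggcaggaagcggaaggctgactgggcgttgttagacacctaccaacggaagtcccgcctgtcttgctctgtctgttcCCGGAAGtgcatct

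The 16 tested genes with NRF-1 letters had a median log2 fold change of 0.04, with 3 higher and 0 lower without overlap, and the 62 without had 0.06, with 6 higher and 4 lower. The 21 with ETS letters had 0.02, with 4 higher and 4 lower without overlap, and the 57 without had 0.07, with 5 higher and 0 lower. Over all genes 13.8% were higher and 13.4% lower without overlap, and nothing is read from these counts. A match is a description of the sequence and not a bound site.

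Of the 224 other genes of the pathway tested, 0 passed an adjusted p of 0.05 in edgeR, 5 were higher and 9 lower at an unadjusted p below 0.05 (beside 5.22% and 8.71% of all genes), and DESeq2 called 1 (beside 4.28%), Mrps6, a protein of the mitochondrial ribosome. Mrps6 had 19.8, 19.96 and 17.8 CPM with 6-gingerol, against 36.8, 57.6 and 30.2 CPM with PBS. All treated rats were lower, with a log2 fold change of -1.11 ± 0.25 (SE) and an adjusted p of 0.334 in edgeR and 0.00418 in DESeq2, and it passed the limits of the study. The 74 mitochondrial ribosomal proteins as a list had 32 positive and 42 negative members and a median of -0.02.

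The list of the citric acid cycle and pyruvate dehydrogenase, which feed electrons to the chain, had 14 of 19 positive, a median of 0.19 and 9 higher in every treated rat, beside 13.8% of all genes. By library totals the median was 0.07, and 1 of the 19 was higher and 1 lower without overlap. Over all genes 7.32% were higher and 22.2% lower by these totals, so the number higher depended on the scaling. Mdh2, the mitochondrial malate dehydrogenase, had 245, 221 and 230 CPM with 6-gingerol, against 196, 161 and 195 CPM with PBS (log2 fold change 0.33 ± 0.12, SE, edgeR adjusted p = 0.348). The median without SAH + PBS rat 2 was 0.13. Pdk4, a kinase that switches pyruvate dehydrogenase off, had -0.66 ± 0.31 (SE) with overlapping groups.

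Over all genes tested 9086 of 17096 had a negative log2 fold change. Of 19 genes of mitochondrial DNA transcription and replication 13 were negative, with a median of -0.07, and of 16 genes of mitochondrial RNA processing and decay 14 were negative, with a median of -0.11. Primpol, a primase-polymerase, had 0.651, 0.869 and 0.902 CPM with 6-gingerol, against 1.24, 2.41 and 1.65 CPM with PBS, and was also past the limits of the study (log2 fold change -1.13 ± 0.36, SE, edgeR adjusted p = 0.347). Rrm2b, which supplies deoxynucleotides, had 19.7, 18.4 and 19.1 CPM with 6-gingerol, against 13.8, 7.82 and 13.8 CPM with PBS. Every treated rat was lower for Primpol and higher for Rrm2b. Pnpt1, an RNA-degrading enzyme, was lower in every treated rat with -0.39 ± 0.15 (SE), and Fastk, whose mitochondrial form is known from mouse and human cells to stabilise ND6 RNA, was higher with 0.36 ± 0.13 (SE).

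The 14 coactivators and transcription factors of mitochondrial biogenesis had 10 negative members and a median of -0.26. The median was -0.04 when SAH + PBS rat 2 was left out. In 0 of the 14 were the groups apart, beside 13.8% of all genes upward and 13.4% downward. By library totals 0 were higher and 1 lower without overlap, beside 7.32% of all genes upward and 22.2% downward. Esrra, a nuclear receptor that drives respiratory genes, had the smallest p, with 48.3, 44.7 and 55.9 CPM with 6-gingerol, against 64.2, 67.9 and 54.2 CPM with PBS. SAH + 6-gingerol rat 3 was above SAH + PBS rat 3 (log2 fold change -0.32 ± 0.14, SE, edgeR adjusted p = 0.364). Pprc1, a coactivator of NRF-1, had -0.37 ± 0.23 (SE).

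The electron carriers, assembly factors outside the symbol rule, and membrane carriers had medians of 0.10, 0.08 and 0.05. Ucp2, an uncoupling protein also found in microglia, had 33.7, 30.6 and 28.9 CPM in SAH + 6-gingerol rats, against 41.1, 96.3 and 48.6 CPM in the SAH + PBS rats. Slc25a12, the aspartate-glutamate carrier of neurons, had 126, 108 and 118 CPM with 6-gingerol, against 99.9, 65.4 and 85.2 CPM with PBS. Ucp2 was lower and Slc25a12 higher in every treated rat, SAH + PBS rat 2 was the farthest from them for both, and their log2 fold changes were -0.998 ± 0.324 and 0.49 ± 0.17 (SE, edgeR adjusted p = 0.347 each). Without that rat they were -0.53 and 0.34. Pdss1, which starts the ubiquinone side chain, had -0.55 ± 0.24, Coq2, the next enzyme, 0.26 ± 0.16, and the assembly factors Cox18, of complex IV, and Tmem126a, of complex I, had -0.37 ± 0.13 and -0.40 ± 0.14 (SE each).

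Some rows did not hold the gene that their symbol names. By gene identifier in RefSeq (95 of 97 nuclear models matched), the Ndufs6 row of 412 bases on chromosome 2 and the Atp5md row of 308 bases on chromosome 10 are pseudogenes, the Ndufa10l1 row on chromosome 9 is Ndufa10, and Atp5h, Atp5i and Atp5s are named Atp5pd, Atp5me and Dmac2l there. The Atp5c1 row spans 184899 bases, so its counts may include another gene. Ndufs6, Cox7b2 and the Ndufa10l1 row on chromosome 6 were at most 0.127 CPM in every library and were not tested, so the level of the Ndufs6 gene itself is not known from this table.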

How the data were processed

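Brain RNA of 3 SAH + 6-gingerol and 3 SAH + PBS rats was read from 1 table of counts and 1 of FPKM, both deposited by the authors for 22396 genes. The notes of the submitters list HISAT2 2.1.0, StringTie 1.3.3b, limma 3.32.10 and the build Rnor_6.0 without their roles. STAR and DESeq2 are the tools in the methods of the paper. Neither the read counter nor the strandedness is stated in those sources. The deposited FPKM equal the counts over a fixed gene length and the library total, to within 0.0096% over 13995 genes. In the tables the SAH + 6-gingerol libraries are headed Control, and columns were joined to samples by title.

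The main test was edgeR 4.0.16 (R 4.3.3) on the deposited counts, with filterByExpr (minimum count 10, total 15), TMM, glmQLFit, glmQLFTest and Benjamini-Hochberg adjustment for 17096 genes. The SE of a log2 fold change is its size over the square root of F. Alternatives were DESeq2 1.42.0, limma 3.58.1 on log2(FPKM + 1) and log2(FPKM + 0.1), RLE factors, library totals with and without mitochondrial counts, other filters, a replicate block and each library left out. Only the main edgeR fit was run on simulated data, and the alternatives were not. The simulation held no library that stands apart from its group, and no result here rests on it. A p-value measures the spread between these rats only.

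The members and lists were chosen with earlier results of these data known. Genes were named where they were mitochondrial, had the 3 smallest p or the largest or smallest FPKM of a complex, or are alternative forms, and of each other list the 2 of smallest p. Uqcrc1, Sdhb and other genes outside this rule were named after their values were seen. Lists carry no test of their own. Promoters and gene identifiers are from RefSeq (GRCr8), whose coordinates are given for promoters only, and all other positions are those of the files.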

Additional observations from a re-analysis of the deposited data

How the results depend on the processing

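The label numbers gave no sign of pairing the rats, since same-numbered rats deviated together with correlations of only -0.041, 0.0065 and 0.0091. With 3 rats per group such values cannot exclude a pairing. With the replicate block edgeR called 0 of all genes, against 3 without it. The number called among all genes was 700 with DESeq2, 0 with a filter of 1 CPM in every library, 5 with limma on log2(FPKM + 0.1), 0 without genes listed at 0 in some libraries, and 0 to 91 with each rat left out (91 without SAH + PBS rat 2, 15 without SAH + PBS rat 3). DESeq2 called 2 mitochondrial genes and 1 gene of the other lists, where edgeR called 0 of both. Under library totals, library totals without mitochondrial counts, limma on log2(FPKM + 1) and limma on log2(FPKM + 0.1), none of which applies TMM, medians of log2 fold changes moved down, in that order of settings, to 0.141, 0.157, 0.145 and 0.145 for the mitochondrial messenger RNAs, -0.071, -0.051, -0.058 and -0.059 for the nuclear genes, -0.048, -0.031, -0.034 and -0.035 for complex I, -0.021, -0.0049, -0.022 and -0.022 for complex II, -0.081, -0.066, -0.058 and -0.058 for complex III, and -0.088, -0.072, -0.085 and -0.086 for complex V. For complex IV they were -0.137 and -0.081 under the library totals. With each rat left out the median of complex III ran from -0.134 (without SAH + PBS rat 1) to 0.165 (without SAH + PBS rat 3). Under the same 4 settings single genes near 0 changed sign, AY172581.24 to -0.098, -0.082, -0.057 and -0.057, Sdhd to -0.068, -0.051, -0.068 and -0.069, Atp5if1 to -0.113, -0.097, -0.114 and -0.115, Cox6b1 (chromosome 1) to -0.053, -0.037, -0.048 and -0.048, and Cox7a2l to -0.041, -0.025, -0.040 and -0.040. Cox4i1 changed to -0.0082 under library totals and -0.0062 under both limma fits, and Atp5if1 to -0.015 with the filter of 1 CPM. With each rat left out, log2 fold changes that changed sign ran from -0.120 to 0.283 for AY172581.24, -0.045 to 0.063 for Atp5if1, -0.415 to 0.0053 for Atp5md, -0.507 to 0.160 for Cox7a1, -0.052 to 0.028 for Cox8a, -0.066 to 0.318 for Ndufa4l2, -0.155 to 0.022 for Ndufb9, -0.0058 to 0.291 for Uqcr11 and -0.232 to 0.025 for Uqcrb (chromosome 7). None of these genes passed the threshold under any setting, and apart from the scaling itself the causes were not tested. RLE factors, no filter, and the sum of gene models of 1 symbol, the last chosen after seeing the data, left every count and median of the lists within its limits.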
